A study of Mus musculus with 3 samples.

Results

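Ribosome biogenesis factors are the nucleolar proteins that transcribe ribosomal RNA, cut, fold and modify it, and assemble it with ribosomal proteins. The list held 42 genes, taken by symbol, and all 42 were found, 1 line each, among the 56691 genes of the deposited table. They cover RNA polymerase I and its activators, the protein cores of the small nucleolar RNPs, nucleolar scaffold proteins, the small-subunit processome and factors of the large subunit. The list was chosen by function, with earlier results of these data known. The genes lie on 17 chromosomes, 7 of them on chromosome 11.

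In the nucleolus, RNA polymerase I makes a long precursor transcript that is trimmed into most of the ribosomal RNAs. Guide snoRNAs, held by box C/D and box H/ACA protein cores, direct methylation and pseudouridylation of that precursor, while the processome and later complexes shape the small and the large subunit. The pathway consumes much of a growing cell's energy, and Myc, a transcription factor, is known as a general activator of it. In the stomach, the chief cell secretes pepsinogen in bulk and is rich in rough endoplasmic reticulum, where ribosomes make secreted proteins.

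RNA was sequenced from 3 cultures of mouse gastric corpus organoids, 1 library per group, grown in Matrigel in a medium for proliferation; every title carries the tag P5. The Mist1- and Mist1+ organoids are labelled WT and came from Mist1Cre/ERT2;RFPLSL mice, which carry an inducible Cre driven by Mist1, a transcription factor of secretory cells, and a red reporter that Cre switches on. The Gpx4 KO-Mist1+ organoids carry the label Gpx4 KO and came from Gpx4F/F;Mist1Cre/ERT2;RFPLSL mice, in which the same Cre acts on a floxed Gpx4. All mice were about 8 weeks old, all 3 groups share the Cre and reporter alleles, and the labels do not say how many animals went into a culture. With 1 library per group no p-value can be given, every comparison describes these libraries, and the 3 comparisons share libraries with each other.

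The column totals were 14943918 (Mist1-), 16187378 (Mist1+) and 16396693 (Gpx4 KO-Mist1+) counts. The gene named by the knockout label, Gpx4, had 4399, 1998 and 2569 counts in the same order; it was 1.27-fold (1.2 to 1.35) higher in the labelled knockout than in Mist1+. A count over the whole gene includes exons that a deletion can leave in place and is no check of the deleted part, so that library is called here the labelled knockout. Bhlha15, the gene of Mist1 itself, was at 5.40, 10.2 and 6.46 FPKM (reads per kilobase of exon, scaled to the column total), which put the Mist1+ library 1.9-fold (1.64 to 2.2) above the Mist1- one. The labelled knockout, which also carries the label Mist1+, stood at 0.63-fold (0.551 to 0.719) of Mist1+ and 1.2-fold (1.02 to 1.4) of Mist1-, so its Bhlha15 level was nearer to the Mist1- library. All 8 gastric epithelial markers were found in every library, from 9.81 FPKM upwards; their own median log2 ratio was -0.35 in the labelled knockout against Mist1+, with 5 of 8 below 0. Of 14 markers of immune, stromal, muscle, endothelial and glial cells, 13 were below an FPKM of 1 in all 3 libraries and Ptprc had at most 1 count. The exception was Cd68, a lysosomal protein gene of macrophages and other cells, at 4.37, 5.06 and 24.4 FPKM; its part in the results was not tested.

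Most members were lower in the labelled knockout than in Mist1+, whereas between the wild-type libraries they went both ways. Of 42 members 39 had a log2 ratio below 0 for the labelled knockout against Mist1+, beside 58.8% of the 13351 genes that reached an FPKM of 1 in some library (genes kept), and 3 were above 0, beside 40.7%. The members' median log2 ratio, taken of FPKM plus 1, was -0.33 beside -0.09 over all kept genes. For Mist1+ against Mist1-, 22 members were above 0 and 20 below, with a median of 0.05 beside 0.15, and of the kept genes 58.8% were above 0 and 40.5% below. That split depended on scaling: it was 33 and 9 on TPM, 11 and 31 under median ratio scaling and 13 and 29 with the trend on gene length removed. The median over all genes kept under each setting shifted too, to 0.45, -0.03 and 0.006 in that order. For the labelled knockout against Mist1-, 35 members were below 0, beside 45.2% of the kept genes, and 7 above, beside 54.3%, with a median of -0.43 beside 0.09. On TPM the split was 26 below and 16 above, where the median over all genes kept on TPM was 0.38. In organoid RNA, fewer cells that make much of these transcripts and less of them per cell cannot be told apart.

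Single members differed little in size. In the labelled knockout against Mist1+ only Bop1 of the 42 passed a 2-fold difference downwards, or 2.38% of the list, near the 2.74% of all kept genes, and 0 were at least 2-fold higher (4.81% of kept genes). At least 1.5-fold lower were 11 members, or 26.2%, beside 11.3% of kept genes, and at least 1.5-fold higher was 1, Myc, beside 10.6%. The 95% interval of the fold, which covers counting error only, lay below 1 for 38 members, beside 40.5% of kept genes, and above 1 for Myc and Npm1, beside 25.2%. Counts ran from 219 to 24428 per member and library.

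Against Mist1- the interval lay below 1 for 29 members in the labelled knockout (34.3% of kept genes) and above 1 for 5 (42.4%). There 12 members were at least 1.5-fold lower, beside 20.1% of kept genes, and Myc was the single one at least 1.5-fold higher, beside 25.6%. In Mist1+ against Mist1- the interval lay above 1 for 16 members (44.9% of kept genes) and below 1 for 18 (28.6%). There 3 members, Polr1a, Utp20 and Heatr1, were at least 1.5-fold higher, beside 23.7% of kept genes, and 5 at least 1.5-fold lower, beside 15%.

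By level, 33 of 42 members were lowest in the labelled knockout, beside 34.6% of kept genes, and 22 had a counting interval there below those of both other libraries, beside 17.8%. Mist1+ was highest for 21 members and Mist1- for 20, beside 36.9% and 32.6% of kept genes, but on TPM these counts were 32 and 9, and under median ratio scaling 11 and 30. All kept genes shifted with these scalings too. Their median log2 ratio for Mist1+ against Mist1- was 0.45 on TPM and -0.03 under median ratio scaling. The count lowest in the labelled knockout was 24 on TPM and 34 under median ratio scaling. On column totals the intervals of Mist1+ and of Mist1- lay above both others for 12 and 16 members, beside 17.6% and 19.6% of kept genes. Lowest in Mist1- were 7 members, beside 46.8% of kept genes, 4 of them by their intervals (29.1%), and lowest in Mist1+ were Nob1 and Npm1, beside 18.6%, with Npm1 alone set apart by its interval (6.46%). Myc was the 1 member highest in the labelled knockout, beside 30.5% of kept genes, and its interval lay above both others, beside 16.1%. The median member level was 18.2 FPKM in Mist1-, 20 in Mist1+ and 13 in the labelled knockout. Together the members took 0.637%, 0.532% and 0.458% of the counts. Without the abundant Npm1 and Ncl the shares were 0.346%, 0.334% and 0.249%. On column totals Mist1- and Mist1+ then stood close together and the labelled knockout apart. Other scalings were not tried for these shares.

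**Figure D1:**
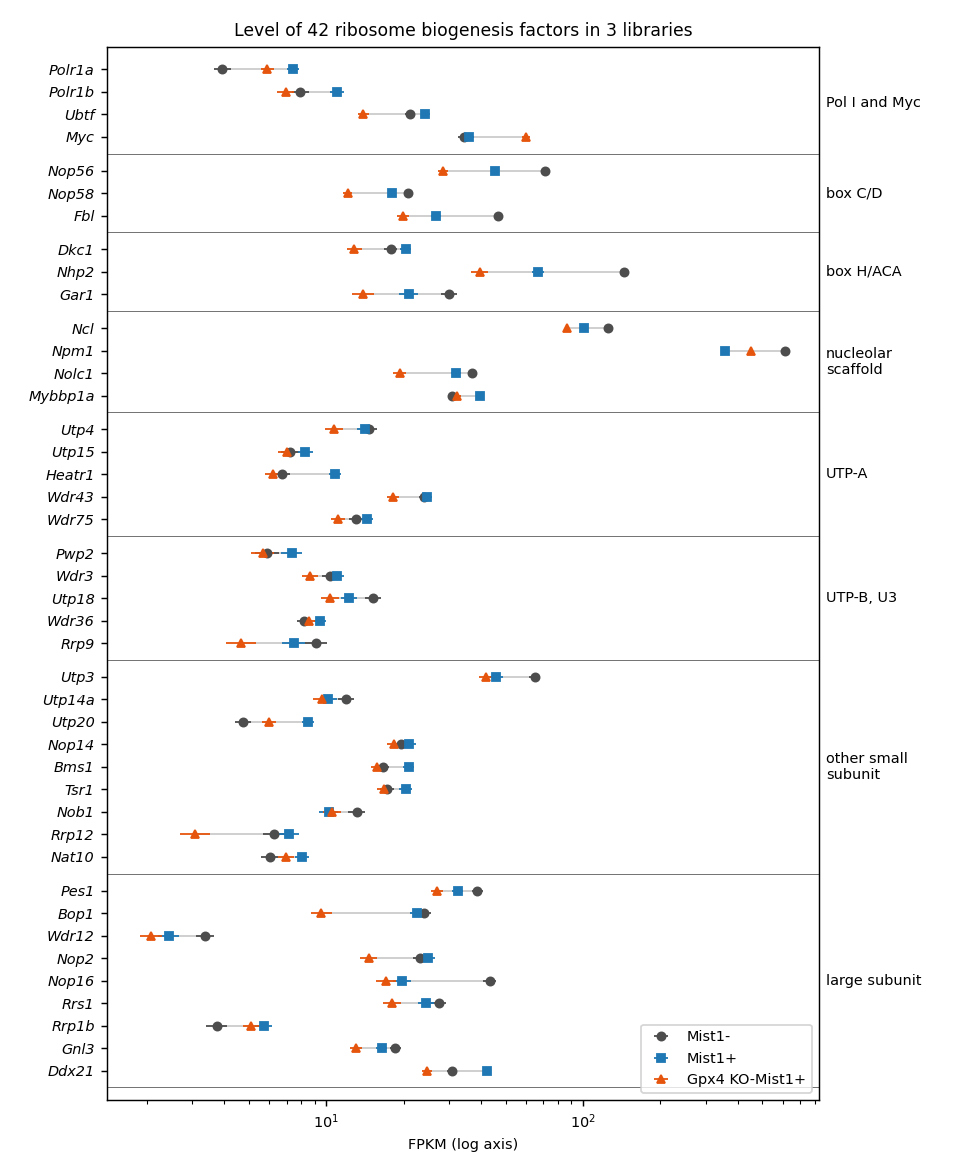
Level of each member in the Mist1- (circles), Mist1+ (squares) and Gpx4 KO-Mist1+ (triangles) libraries, as FPKM on a log axis with 95% counting intervals, grouped by role. The triangle is the leftmost mark for 33 of the 42 genes and the rightmost for Myc alone.

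Among RNA polymerase I and its regulators, the activator Myc was highest in the library where most other members were lowest. Myc (ENSMUSG00000022346, GRCm38 chr15:61985391-61990374, plus strand) stood at 34.4 FPKM in Mist1-, 35.9 in Mist1+ and 59.9 in the labelled knockout. On column totals the wild-type libraries did not differ beyond counting error (1.04-fold, 0.971 to 1.12). Their log2 ratio ran from -0.16 to 0.38 under the scalings tried. In the labelled knockout Myc was 1.67-fold (1.57 to 1.78) above Mist1+. Its log2 ratio there lay between 0.70 and 0.84 under the scalings tried against Mist1+, and between 0.65 and 1.08 against Mist1-.

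Polr1a and Polr1b encode the 2 large catalytic subunits of RNA polymerase I. Polr1a (chr6:71909053-71984935, plus strand) was at 3.94, 7.43 and 5.88 FPKM in Mist1-, Mist1+ and the labelled knockout. The Mist1+ level was 1.88-fold (1.72 to 2.07) that of Mist1-, the largest such fold of the 42 by counts, although with the length trend removed its log2 ratio was 0.08. The gene was 1.26-fold (1.17 to 1.37) lower in the labelled knockout than in Mist1+. Polr1b was at 7.93, 10.98 and 6.97 FPKM. Both subunits were thus highest in Mist1+. Their FPKM ratio, Polr1a over Polr1b, was 0.497, 0.677 and 0.844 in the 3 libraries. Polr1a is the longer gene, with an exonic size of 11871 bases beside 5805. With the length trend removed, the log2 ratios of Polr1a and Polr1b in Mist1+ against Mist1- were close, 0.08 and 0.07. In the labelled knockout against Mist1+ they were -0.25 and -0.47. Ubtf, which binds ribosomal DNA and keeps it open for the polymerase, was at 21.2, 24.3 and 13.9 FPKM, or 1.74-fold (1.63 to 1.86) lower in the labelled knockout than in Mist1+.

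The 3 box C/D core genes were lower step by step, from Mist1- over Mist1+ to the labelled knockout, except that the first step of Nop58 changed sign on TPM. Nop56 and Nop58 are paired scaffold proteins, and Fbl, fibrillarin, is the methyltransferase that they position. Nop56 (ENSMUSG00000027405, chr2:130274430-130279313, plus strand) was at 71, 45.5 and 28.5 FPKM. Each step was of like size, 1.56-fold (1.49 to 1.64) from Mist1- and 1.59-fold (1.5 to 1.69) from Mist1+, and the labelled knockout stood 2.49-fold (2.36 to 2.63) below Mist1-. Fbl (ENSMUSG00000046865, chr7:28169710-28179269, plus strand) was at 46.6, 26.7 and 19.9 FPKM, 1.34-fold (1.25 to 1.44) lower in the labelled knockout than in Mist1+. Nop58 was at 20.7, 18 and 12.1 FPKM. On column totals its step came mainly between the Mist1+ library and the labelled knockout, at 1.49-fold (1.41 to 1.57). The log2 ratios of its first and second step were -0.84 and -0.49 with the length trend removed. Under median ratio scaling they were -0.41 and -0.45.

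In the box H/ACA core the largest difference of the whole list was found. Dkc1, dyskerin, is the pseudouridine synthase, and Nhp2 and Gar1 are small proteins bound to it. Nhp2 (ENSMUSG00000001056, chr11:51619735-51623714, plus strand) had 144 FPKM (139 to 150) in the Mist1- library, 66.7 (63.1 to 70.6) in the Mist1+ one and 39.5 (36.7 to 42.5) in the labelled knockout. The intervals were far apart. The first step was 2.16-fold (2.02 to 2.32), and from Mist1- to the labelled knockout the level was 3.65-fold (3.36 to 3.97) lower. Gar1 (chr3:129824912-129831396, minus strand) was at 30, 20.9 and 13.95 FPKM, again lower at each step. Dkc1 (chrX:75095854-75109777, plus strand) did not share the first step, whose sign turned with scaling. It was at 17.9, 20.4 and 12.9 FPKM, and 1.58-fold (1.45 to 1.72) lower in the labelled knockout than in Mist1+. The FPKM of Nhp2 was thus 8.09 times that of Dkc1 in Mist1-, 3.28 times in Mist1+ and 3.07 times in the labelled knockout. Nhp2 is the shorter gene, with 1146 bases beside 4121. With the length trend removed, the log2 ratios of Nhp2 and Dkc1 in Mist1+ against Mist1- were -0.64 and 0.04, so this step was smaller.

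The nucleolar scaffold genes include the most abundant members. Npm1, nucleophosmin, which forms the outer layer of the nucleolus, was at 613, 359 and 451 FPKM in Mist1-, Mist1+ and the labelled knockout. It went against the list: it was lowest in Mist1+ and 1.26-fold (1.23 to 1.28) higher in the labelled knockout. Processed copies of Npm1 exist in the genome, so its count is uncertain. Ncl, nucleolin, an RNA-binding chaperone of early precursors, was at 125, 101 and 87 FPKM. Nolc1, a scaffold that carries snoRNPs, was at 37.1, 32 and 19.3 FPKM, or 1.66-fold (1.54 to 1.78) lower in the labelled knockout than in Mist1+. Mybbp1a, a Myb-binding nucleolar protein, was highest in Mist1+, at 30.9, 39.6 and 32.4 FPKM. With the length trend removed its log2 ratio in Mist1+ against Mist1- was -0.0093.

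**Figure D2:**
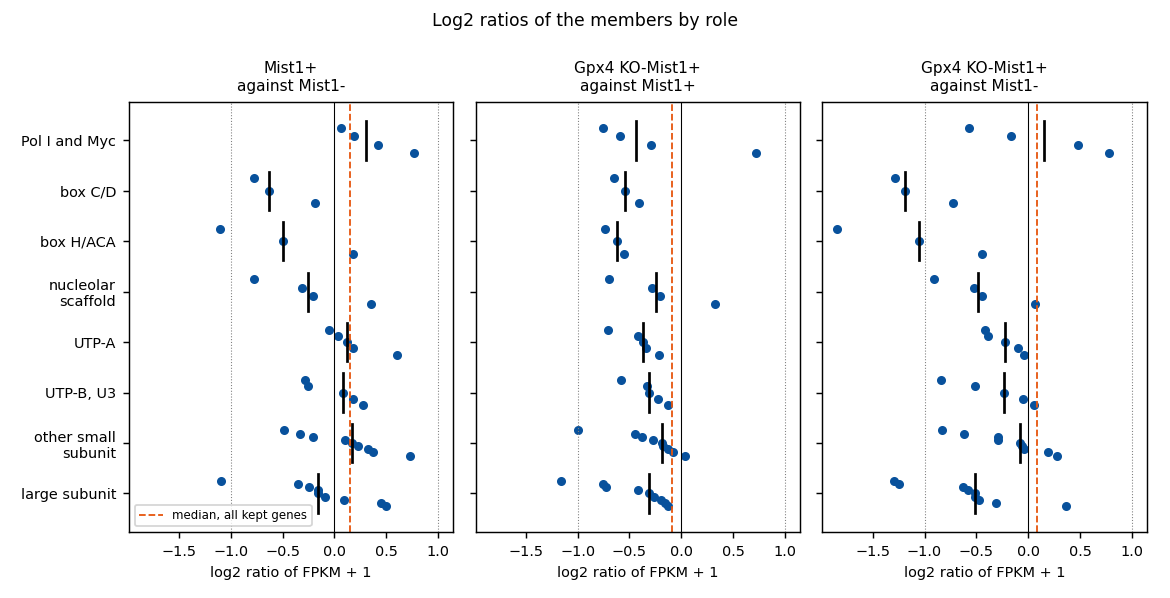
Log2 ratio of FPKM plus 1 for each member (points) by role, with the median of the role (black bar), in the 3 comparisons; the dashed line is the median of all 13351 kept genes and the dotted lines mark 2-fold. In the middle panel all but Myc, Npm1 and Nob1 lie left of 0; Utp14a also lay right of it under median ratio scaling and with the length trend removed.

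The small-subunit processome is built on the precursor while it is being made. Its UTP-A complex, which binds first, was represented by Utp4, Utp15, Heatr1, Wdr43 and Wdr75, and all 5 were lower in the labelled knockout than in Mist1+, with a median log2 ratio of -0.37. Heatr1 differed most, at 6.73, 10.8 and 6.2 FPKM in Mist1-, Mist1+ and the labelled knockout. Mist1+ stood 1.6-fold (1.47 to 1.75) above Mist1- and 1.74-fold (1.59 to 1.9) above the labelled knockout. On column totals those 2 libraries did not differ beyond counting error (0.922-fold, 0.834 to 1.02). The log2 ratio of the labelled knockout against Mist1- ran from -0.55 to 0.16 under the scalings tried. Utp4 was at 14.7, 14.2 and 10.7 FPKM, Wdr43 at 24.1, 24.7 and 18.2, and Wdr75 at 13.1, 14.4 and 11.1. Utp15 was among the 3 least variable members, at 7.22, 8.3 and 7.01 FPKM.

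UTP-B, the scaffold beside it, and the U3 snoRNP protein Rrp9 gave 5 members, again all below 0 in the labelled knockout against Mist1+ (median -0.31). Rrp9 was at 9.13, 7.48 and 4.66 FPKM and 1.61-fold (1.35 to 1.91) lower in the labelled knockout than in Mist1+. Utp18, another subunit, was at 15.2, 12.3 and 10.4 FPKM. The UTP-B subunits Pwp2 and Wdr3 were highest in Mist1+ by FPKM, at 7.34 and 11. For Wdr3 the difference from Mist1- lay within counting error (1.06-fold, 0.966 to 1.17). Its log2 ratio there ran from -0.21 to 0.40 under the scalings tried. Wdr36 hardly differed, at 8.21, 9.46 and 8.55 FPKM.

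The other 9 small-subunit factors were more mixed. Rrp12, an export and maturation factor, was at 6.26 FPKM in Mist1-, 7.15 in Mist1+ and 3.08 in the labelled knockout. Its counts were 2.32-fold (1.98 to 2.73) lower there than in Mist1+; with 1 added to each FPKM the log2 ratio was -0.998 and just missed the 2-fold call, as can happen to genes of low level. Utp20, a long processome scaffold, was at 4.74, 8.5 and 5.97 FPKM, so the Mist1+ level was 1.79-fold (1.64 to 1.97) that of Mist1-. Nob1, the endonuclease of the last cut, was at 13.1, 10.2 and 10.5 FPKM, with no difference beyond counting error between the last pair (1.03-fold, 0.916 to 1.15). Utp14a, which activates a processome helicase, did not differ there beyond counting error either (0.941-fold, 0.844 to 1.05). Utp3 was at 64.8, 45.9 and 41.9 FPKM. Nop14 was the least variable member, at 19.5, 21 and 18.4 FPKM. The GTPase Bms1, its relative Tsr1 and the RNA acetyltransferase Nat10 were all highest in Mist1+, at 21, 20.4 and 8.06 FPKM. With the length trend removed the log2 ratio of Nat10 in Mist1+ against Mist1- was -0.11.

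All 9 large-subunit factors were below 0 in the labelled knockout against Mist1+. Bop1 (ENSMUSG00000022557, chr15:76452989-76477277, minus strand), of the PeBoW complex with Pes1 and Wdr12, was at 24.1 and 22.6 FPKM in the wild-type libraries and 9.57 in the labelled knockout. On column totals the wild-type libraries did not differ beyond counting error, though their log2 ratio ran from -0.31 to 0.23 under the scalings tried. In the labelled knockout Bop1 was 2.36-fold (2.11 to 2.63) below Mist1+. Its partners differed less: Pes1 was at 38.8, 32.6 and 27 FPKM and Wdr12 at 3.37, 2.43 and 2.07, or 1.21-fold (1.12 to 1.3) and 1.18-fold (1.03 to 1.35) below Mist1+. The FPKM of Pes1 was 1.61 and 1.44 times that of Bop1 in Mist1- and Mist1+, and 2.82 times in the labelled knockout. Within this trimeric complex the difference was therefore unequal.

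Nop16 (ENSMUSG00000025869, chr13:54584185-54590090, minus strand), an early large-subunit factor, had its step elsewhere. It was at 43.3 FPKM in Mist1-, 19.7 in Mist1+ and 17.1 in the labelled knockout, a step of 2.2-fold (1.99 to 2.43) and then one of 1.15-fold (1.02 to 1.3). Nhp2 and Nop16 were the 2 members past a 2-fold difference downwards in Mist1+ against Mist1-, or 4.76% of the list beside 5.73% of kept genes; on TPM neither passed. No member was at least 2-fold higher there (7.88% of kept genes). Nop2, the ribosomal RNA methyltransferase, was at 23.2, 24.9 and 14.7 FPKM, and the RNA helicase Ddx21 at 30.8, 42.4 and 24.7 FPKM. These were 1.7-fold (1.54 to 1.87) and 1.71-fold (1.62 to 1.81) lower in the labelled knockout than in Mist1+. Rrs1, which brings the 5S particle into the large subunit, and Gnl3, nucleostemin, were lowest in the labelled knockout, at 18 and 13.1 FPKM, and Rrp1b, a nucleolar processing factor, was lowest in Mist1-, at 3.74 FPKM.

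Against Mist1-, 6 members passed a 2-fold difference downwards in the labelled knockout, Nhp2, Nop16, Nop56, Bop1, Fbl and Gar1, or 14.3% of the list beside 8.56% of kept genes. No member was at least 2-fold higher (11.6% of kept genes). Of these 6, 4 belong to the box C/D and box H/ACA cores, whose 6 members in the list were all below 0. The calls depended on scaling. On TPM Fbl (-0.92) and Gar1 (-0.80) were no longer 2-fold lower, Nhp2, Nop16, Nop56 and Bop1 were, and Myc (1.08) was 2-fold higher. Of the genes kept on TPM 5.95% were 2-fold lower and 24.3% higher. With the length trend removed Nop16 (-0.90) and Gar1 (-0.64) dropped out, while Nop58 (-1.35), Ncl (-1.12) and Wdr12 (-1.18) entered. Then 6.09% of kept genes were 2-fold lower.

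The wild-type comparison followed gene length. Across the 42 members, the Spearman rho between exonic size and log2 ratio was 0.55 for Mist1+ against Mist1-, beside 0.49 across all kept genes; for the labelled knockout against Mist1- it was 0.46 beside 0.39, and against Mist1+ it was -0.01 beside -0.02. Genes are not independent replicates. Of the 14 shortest members (1146 to 3486 bases) 11 were below 0 in Mist1+ against Mist1-, with a median of -0.25 beside -0.21 for all kept genes of these sizes. Of the 14 longest (5803 to 11955 bases) 10 were above 0, with a median of 0.27 beside 0.53. In the labelled knockout against Mist1+ the medians of the short, middle and long members were -0.32, -0.39 and -0.29, beside -0.10, -0.13 and -0.10 for kept genes of the same sizes.

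With the trend on length removed by lowess, 29 members were below 0 in Mist1+ against Mist1-, and the median was -0.12, beside 0.006 over all kept genes. Wdr12 then had the lowest value, -1.05, and was the 1 member 2-fold lower, beside 3.86% of kept genes. It was followed by Ncl (-0.94), Fbl (-0.93), Nop58 (-0.84), Nop56 (-0.77), Nop16 (-0.74), Nhp2 (-0.64) and Npm1 (-0.63), so Nhp2 and Nop16 lost their 2-fold call. Polr1a and Utp20 were at 0.08 and 0.10, and the highest members were Nop14 (0.22), Nop2 (0.21) and Myc (0.19). In the labelled knockout 38 members were below 0 against Mist1+ and 40 against Mist1-, with medians of -0.23 and -0.43. Over all kept genes these medians were -0.0055 and -0.0063. Why the libraries differ by gene length was not tested.

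**Figure D3:**
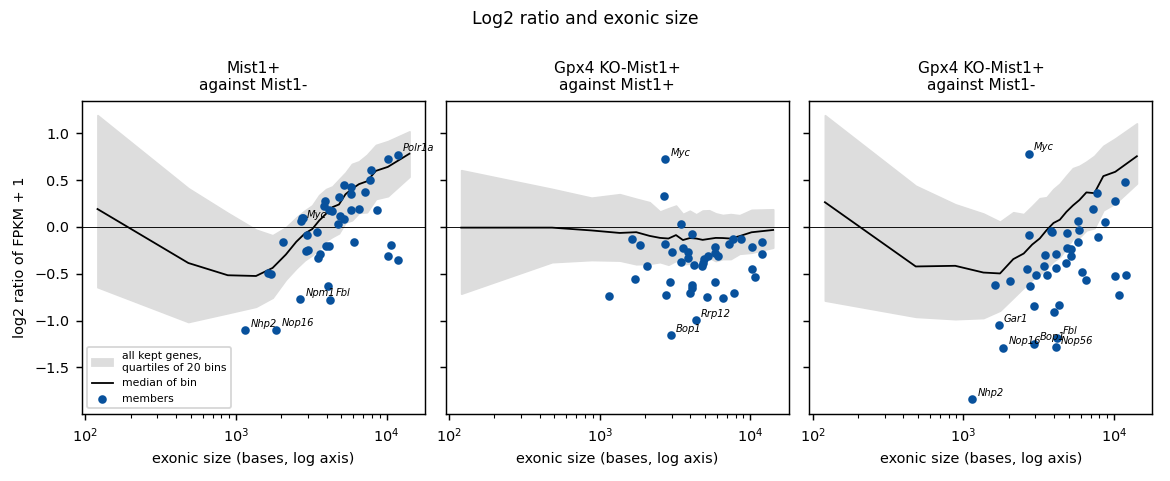
Log2 ratio of FPKM plus 1 against exonic size (log axis) for the 42 members (points), with the median (line) and quartiles (band) of all kept genes in 20 bins of size, in the 3 comparisons. The band climbs with size in the outer panels and is level in the middle one, where 39 points lie below 0.

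Scaling moved the comparisons with Mist1- more than the labelled knockout against Mist1+. The deposited FPKM sum to 379460 in Mist1-, 302663 in Mist1+ and 310243 in the labelled knockout. On TPM, made here by giving each library's FPKM the same sum, 16770 genes reached a value of 1, and the median over them was 0.45 in Mist1+ against Mist1-, -0.11 in the labelled knockout against Mist1+ and 0.38 against Mist1-. Over the 13351 genes kept on FPKM it was 0.47, -0.14 and 0.37, beside 0.15, -0.09 and 0.09 on FPKM. Relative to the median of the genes each scaling kept, the members stood at -0.10 (FPKM), -0.08 (TPM) and -0.14 (median ratio scaling) in Mist1+ against Mist1-. They stood at -0.24, -0.28 and -0.24 in the labelled knockout against Mist1+, and at -0.52, -0.54 and -0.54 against Mist1-. Under FPKM, TPM, CPM, median ratio scaling and removal of the length trend, 38 members were below 0 throughout in the labelled knockout against Mist1+, Myc, Npm1 and Nob1 were above 0 throughout, and Utp14a changed sign. The size of single ratios and the 2-fold calls did move there: Rrp12 joined Bop1 on TPM and on CPM, with log2 ratios of -1.17 and -1.16. Of the genes kept under each, 6.56% and 3.23% were 2-fold lower. In Mist1+ against Mist1- the sign turned for 25 members. Those below 0 throughout were Nhp2, Nop16, Fbl, Nop56, Gar1, Npm1, Nob1, Utp3 and Wdr12, and those above 0 throughout were Polr1a, Polr1b, Heatr1, Utp20, Bms1, Tsr1, Pwp2 and Ddx21.

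Promoters are shown for the 3 most variable members, Nhp2, Nop16 and Nop56, and for a pair that holds both motifs searched, Pes1 and Mybbp1a. Each runs from 250 bases before the start to 50 after it, 5′ to 3′ on the gene's strand, from RefSeq on GRCm38.p6. Capitals mark CACGTG, the E-box bound by Myc with Max, and the related CACGCG or its reverse complement CGCGTG; Nop56 holds neither, and in Mybbp1a the matches of CACGCG on both strands overlap.
Nhp2, chr11:51619523-51619822, plus strand: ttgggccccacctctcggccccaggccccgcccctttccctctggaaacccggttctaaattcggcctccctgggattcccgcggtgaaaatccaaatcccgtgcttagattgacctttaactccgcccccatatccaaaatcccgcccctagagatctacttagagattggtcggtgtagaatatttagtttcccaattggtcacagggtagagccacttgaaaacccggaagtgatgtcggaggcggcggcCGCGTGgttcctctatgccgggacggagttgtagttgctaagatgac
Nop16, chr13:54590025-54590324, minus strand: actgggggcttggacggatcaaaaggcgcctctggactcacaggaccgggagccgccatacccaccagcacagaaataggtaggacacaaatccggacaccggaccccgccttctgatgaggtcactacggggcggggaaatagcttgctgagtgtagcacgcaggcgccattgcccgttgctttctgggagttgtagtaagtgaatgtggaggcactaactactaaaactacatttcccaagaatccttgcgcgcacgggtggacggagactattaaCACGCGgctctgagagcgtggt
Nop56, chr2:130274162-130274461, plus strand: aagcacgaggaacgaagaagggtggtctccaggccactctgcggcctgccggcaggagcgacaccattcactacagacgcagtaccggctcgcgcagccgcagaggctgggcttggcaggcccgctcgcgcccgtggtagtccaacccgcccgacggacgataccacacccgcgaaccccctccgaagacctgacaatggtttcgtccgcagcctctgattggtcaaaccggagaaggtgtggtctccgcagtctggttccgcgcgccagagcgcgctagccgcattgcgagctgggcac
Pes1, chr11:3963725-3964024, plus strand: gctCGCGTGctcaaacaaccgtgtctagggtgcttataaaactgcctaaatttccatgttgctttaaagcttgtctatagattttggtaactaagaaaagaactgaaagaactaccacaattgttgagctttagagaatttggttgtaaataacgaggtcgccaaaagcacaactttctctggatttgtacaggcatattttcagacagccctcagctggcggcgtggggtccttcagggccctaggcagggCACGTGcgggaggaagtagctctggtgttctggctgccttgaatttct
Mybbp1a, chr11:72441077-72441376, plus strand: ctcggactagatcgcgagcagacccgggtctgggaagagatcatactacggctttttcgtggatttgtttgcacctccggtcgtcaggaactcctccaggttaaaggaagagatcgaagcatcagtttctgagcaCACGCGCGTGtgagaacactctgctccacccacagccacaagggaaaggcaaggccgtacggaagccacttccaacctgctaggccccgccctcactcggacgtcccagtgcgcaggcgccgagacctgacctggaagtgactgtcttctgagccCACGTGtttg

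The table of promoters held 35 of the 42 members; Myc, Npm1, Fbl, Bop1, Rrs1, Rrp12 and Wdr36 were not matched. CACGTG, which reads the same on both strands, was found in 8 of the 35 (22.9%), beside 12% of 9248 kept genes and 8.09% of all 27025 genes in the table. The variant CACGCG, on either strand, was in 9 members (25.7%) beside 20.4% of kept genes. The 6 further members with CACGTG are shown by the motif in capitals with up to 20 bases on either side. All but Nop2 and Utp18 carry it just after the start.
Utp4, chr8:106893635-106893680, plus strand: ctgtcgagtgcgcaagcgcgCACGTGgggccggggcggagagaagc
Wdr43, chr17:71616212-71616257, plus strand: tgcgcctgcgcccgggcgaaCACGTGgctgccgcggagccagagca
Tsr1, chr11:74898084-74898129, plus strand: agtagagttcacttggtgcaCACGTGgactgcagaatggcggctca
Utp20, chr10:88826765-88826797, minus strand: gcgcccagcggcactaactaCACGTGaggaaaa
Utp18, chr11:93885761-93885806, minus strand: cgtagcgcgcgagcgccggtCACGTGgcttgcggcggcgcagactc
Nop2, chr6:125131803-125131848, plus strand: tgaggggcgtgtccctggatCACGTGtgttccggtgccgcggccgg

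Members with and without the E-box had close medians in the labelled knockout against Mist1+: -0.32 for the 8 holders (range -0.73 to -0.22) and -0.33 for the 27 without it (range -0.76 to 0.04). Against Mist1- the medians were -0.40 and -0.31, and in Mist1+ against Mist1- they were 0.07 and 0.08. A match describes the letters in this window and is not a bound site.

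Some members also host snoRNA genes, the guides of the RNPs described above, a property the list was not chosen for. In GENCODE M21, 7 of the 42 (16.7%), Nop56, Nop58, Dkc1, Ncl, Wdr43, Tsr1 and Gnl3, contain at least 1 snoRNA gene on their own strand, 21 in all, beside 1.75% of 11051 kept protein-coding genes. The deposited table lists 20 of these snoRNAs, with 14, 25 and 33 counts in sum, and Snord91a inside Tsr1 had the most, 2, 11 and 8. At that depth no level of the guides can be read. All 7 host genes were below 0 in the labelled knockout against Mist1+, but so were 39 of all 42 members, beside 58.8% of kept genes. The median was -0.42 for the hosts and -0.33 for the other 35 members.

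Other genes of the pathway that are not in the list were counted in the same way. Of 122 kept genes for RNA polymerase I, snoRNP assembly, both subunits and the RNA exosome, 105 were below 0 in the labelled knockout against Mist1+, with a median of -0.35, and 104 against Mist1-, with a median of -0.47. On TPM the latter were 85 and -0.22, beside a median of 0.38 over all genes kept on TPM. On FPKM 58.8% of all kept genes were below 0 against Mist1+ and 45.2% against Mist1-. At least 1.5-fold lower against Mist1+ were 24, beside 11.3% of kept genes. By the call on FPKM plus 1, 1 was at least 2-fold lower, the exosome gene Exosc2, beside 2.74%. In Mist1+ against Mist1-, 46 were above 0 and 76 below, beside 58.8% and 40.5% of kept genes. But on TPM 73 were above and 49 below, and under median ratio scaling 25 and 97. The median over all genes kept under these scalings was 0.45 and -0.03. Among small-subunit factors 35 of 38 were below 0 in the labelled knockout against Mist1+, and among large-subunit factors 43 of 49. In snoRNP assembly the count was 7 of 9 (median -0.17), and in the exosome 11 of 13 (median -0.41).

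Of 13 other RNA polymerase I genes 9 were below 0 there, with a median of -0.42. The subunit genes Cd3eap and Polr1e were 1.94-fold (1.63 to 2.31) and 2.05-fold (1.69 to 2.5) lower by counts. Tcof1, treacle, a cofactor of ribosomal DNA transcription, was at 9.06, 16.8 and 9.08 FPKM, highest in Mist1+ like Polr1b and Heatr1. Nop10, the remaining small protein of the H/ACA core, was at 92.4, 40.8 and 40.6 FPKM, so it stepped down between Mist1- and Mist1+ like Nhp2 and Nop16, and all 3 are short genes. Bysl, a small-subunit maturation factor, was 2.22-fold (1.91 to 2.58) lower in the labelled knockout than in Mist1+. Exosc2 was 2.12-fold (1.9 to 2.37) lower. Eif6, which holds the free large subunit, was at 52.3, 27.6 and 19.8 FPKM.

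Of 10 genes of the Myc network, 4 were above 0 and 6 below in the labelled knockout against Mist1+. This split was near that of all kept genes, 40.7% above and 58.8% below. Mxi1, a Max partner that opposes Myc, was at 6.16, 5.37 and 14.9 FPKM, 2.77-fold (2.52 to 3.05) higher in the labelled knockout than in Mist1+. Mycl, a Myc paralog, was at 3.94, 9.26 and 4.38 FPKM, 2.11-fold (1.83 to 2.44) lower there, and Mxd4, another Max partner, was 2.07-fold (1.89 to 2.26) lower. Mxd3 was at 5.79, 3.55 and 1.39 FPKM. Thus Myc and its antagonist gene Mxi1 were both highest in the labelled knockout.

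The ribosomal proteins, which these factors assemble, did not follow them in the labelled knockout against Mist1+. Of 79 ribosomal protein genes 76 were above 0 there, beside 40.7% of kept genes, with a median of 0.38. Of 42 biogenesis factors 39 were below 0. In Mist1+ against Mist1- all 79 were below 0, beside 40.5% of kept genes, with a median of -1.34. The factors had 0.05 on FPKM and 0.37 on TPM, but -0.12 with the length trend removed and -0.17 under median ratio scaling. In the labelled knockout against Mist1- both lists were lower. All 79 were below 0 (median -0.95), as were 35 of 42 factors (median -0.43), beside 45.2% of kept genes. Ribosomal protein genes are short (median exonic size 1770 bases, beside 4170 for the members) and known for processed copies in the genome, which makes the count of any 1 of them unsure. With the length trend removed their medians were 0.48 (labelled knockout against Mist1+), -1.08 (Mist1+ against Mist1-) and -0.58 (labelled knockout against Mist1-). The DNA replication genes, by contrast, were lower with the factors: 35 of 35 were below 0 in the labelled knockout against Mist1+, with a median of -0.71, and their part in the members' difference was not tested. The difference between these lists has no test with 1 library per group. Mitochondrial genes took 3.57%, 4.26% and 5.14% of the counts, and whether this bears on the members was not tested.

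**Figure D4:**
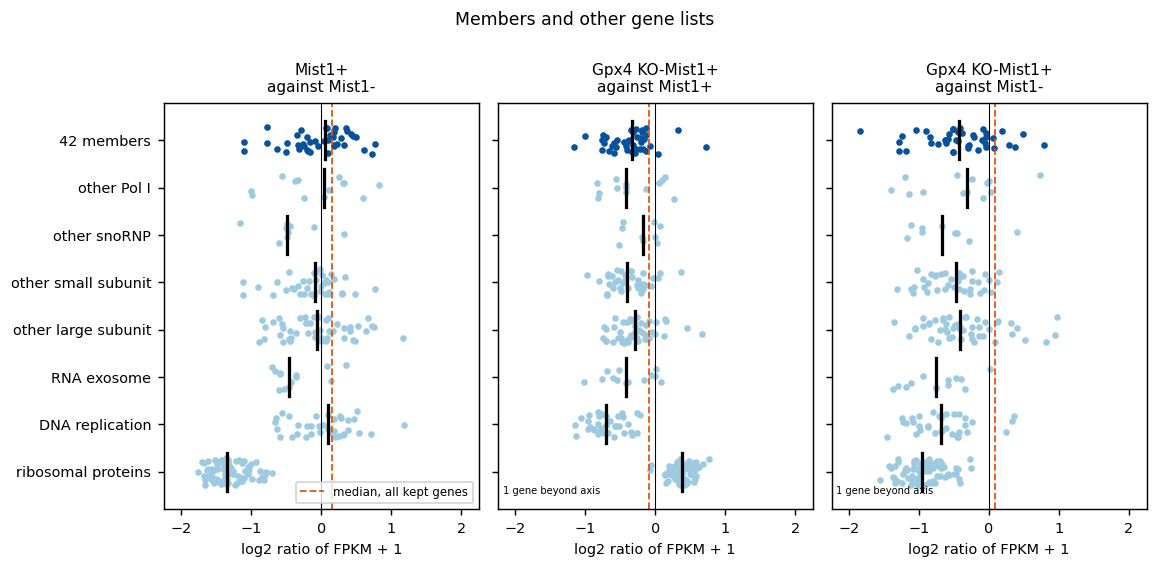
Log2 ratio of FPKM plus 1 for the 42 members (dark points) and for other gene lists (light points), with the median of each list (black bar) and of all kept genes (dashed line), in the 3 comparisons; 1 ribosomal protein gene lies beyond the axis where stated. In the middle panel the members and replication genes centre left of 0 under each scaling tried, at -0.33 and -0.71, and the ribosomal proteins right of it, at 0.38.

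A level depends on the size used to scale it. The exonic size in the table joins all exons of a gene and was larger than the longest coding transcript with a CCDS entry in M21 by a median of 1.31 times, and by 3.52 times for Fbl, 3.13 for Gnl3, 2.18 for Nop56 and 2.10 for Nob1. If that transcript is the main one, which was not measured, their levels are understated relative to members with a smaller ratio. The fold of counts does not use the size, but the log2 ratio of FPKM plus 1 does to some extent, and the values with the length trend removed rest on it, so those of Fbl and Nop56 are uncertain. In M21, 18 members overlap another gene on the opposite strand, 13 of them a protein-coding gene, such as Nhp2 with Rmnd5b, Nop56 with Idh3b and Bop1 with Mroh1 and Scx. The strand setting of the counting is not given in the sources used here, so reads of such partners may be mixed or dropped. Among the 24 members without such a partner, 21 were below 0 in the labelled knockout against Mist1+ and the median was -0.38.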

How the data were processed

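RNA of 3 organoid cultures was sequenced, 1 library per group. The submitters' processing notes name cutadapt 1.9.1, HISAT2 2.2.1, HTSeq 0.6.1 and build GRCm38.p5, without order; the annotation release and strand setting are not given in the sources used here. Per the file headers the deposited table holds a count and an FPKM per gene and library. The deposited FPKM equalled count per exonic size and column total within 2.77% for genes with at least 50 counts. Start and end in the table were those of GENCODE M21 (GRCm38) for 2.83% of 52073 shared identifiers, so gene coordinates here are from M21.

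Scripts ran under Python 3.11.15; the length trend used statsmodels 0.14.6, the intervals scipy 1.17.1, the tables pandas 2.3.3 with numpy 2.4.6, and the plots matplotlib 3.10.9. Kept genes reached an FPKM of 1 in some library; all 42 members did. Log2 ratios used FPKM plus 1. Folds are of counts over column totals, with exact 95% intervals from the binomial split; level intervals are Poisson. Both cover counting error only. The length trend was a lowess (fraction 0.3) on log2 exonic size. The fold calls and their intervals were first run on simulated Poisson counts with known folds. Those counts hold counting error only, as the intervals assume, so that run cannot speak to replicate spread. By rule, members 2-fold apart, the 2 most variable of each role without one and the 3 least variable are given with values in every library; genes of other lists are among the 3 with the largest ratio in a comparison. The members, lists and tests were chosen with earlier results of these data known. The CACGCG motif, the snoRNA hosts and the size and overlap subsets were added after the values were seen. Comparisons between lists have no test.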

Additional observations from a re-analysis of the deposited data

How the results depend on the processing

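No paired analysis was possible because each group has 1 library. For Mist1+ against Mist1- the members' median log2 ratio, 0.05, turned to -0.12 with the length trend removed and to -0.17 with median ratio scaling, and was 0.37 on TPM; for the labelled knockout against Mist1- it was -0.16 on TPM instead of -0.43. Against Mist1+ it stayed between -0.40 and -0.23 under every alternative run. For Mist1+ against Mist1- the median over all kept genes moved as well. It was 0.006 with the length trend removed, -0.03 with median ratio scaling and 0.45 on TPM. With a 1.5-fold call in place of 2-fold, the members higher and lower were 3 and 5 in Mist1+ against Mist1-, 1 and 11 in the labelled knockout against Mist1+, and 1 and 12 against Mist1-. On TPM 2 members (Polr1a and Utp20) were 2-fold higher and 0 lower in Mist1+ against Mist1-. Of the 16770 genes kept on TPM 22.6% were higher and 4.01% lower there. In the labelled knockout 1 (Myc) was higher against Mist1-, beside 24.3%, and 2 were lower against Mist1+, beside 6.56%. The count lower against Mist1+ was 2 also on CPM and with a pseudocount of 0.1, and 0 with a pseudocount of 5. The shares of kept genes were 3.23%, 5.79% and 0.524%. In Mist1+ against Mist1-, 1 member was lower with a pseudocount of 5, beside 2.97% of kept genes. With the length trend removed it was also 1, beside 3.86%, but a different gene from those called on FPKM (Wdr12). On TPM 32 members were highest in Mist1+ and 9 in Mist1-, and 16 were lowest in Mist1-; with median ratio scaling 11 were highest in Mist1+ and 30 in Mist1-, 4 lowest in Mist1+ and 4 lowest in Mist1-. List medians that changed sign in Mist1+ against Mist1- were other small-subunit (0.23) and large-subunit genes (0.23) on TPM, other RNA polymerase I genes (-0.17 with median ratio scaling, -0.18 with the length trend removed, -0.10 at an FPKM of at least 5) and replication genes (-0.13 with median ratio scaling and -0.059 with the length trend removed). Against Mist1- the medians of other RNA polymerase I, small-subunit and large-subunit genes in the labelled knockout were -0.12, -0.26 and -0.17 on TPM instead of -0.31, -0.47 and -0.41. The Myc network median in the labelled knockout against Mist1+ was 0.0036 with the length trend removed. The causes were not tested. Counting error limits folds near 1, and no replicate spread is known.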
